A study of Mus musculus with 6 samples.

Results

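Desmosomes are cell-cell junctions that join the keratin filaments of neighbouring epithelial cells. Their extracellular part is made of cadherins, the desmogleins and the desmocollins. Inside the cell, plakoglobin and the plakophilins bind the cadherin tails, and desmoplakin links them to keratin. In the rodent uterus, the luminal epithelium is known to change its lateral junctions around the time of embryo attachment, and desmosomes become fewer. The 10 genes described here were *Dsc2*, *Dsg2* and *Dsg3* (cadherins), *Dsp*, *Jup*, *Pkp1*, *Pkp2*, *Pkp3* and *Pkp4* (plaque proteins) and *Perp* (a tetraspan membrane protein of desmosomes), out of 56748 genes in the deposited tables. They were chosen by name as a family, with the expression difference between the same 6 uteri already known, so their differences are given as a description. Of the 10 genes, 9 passed the filter on low counts, and *Pkp1* did not.

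RNA of 3 control and 3 *Gp130* ecKO uterus samples was sequenced on day 4 of pregnancy at 1600 h, to ask what loss of epithelial *Gp130* does to the uterine transcriptome before embryo attachment. The *Gp130* ecKO females were *Ltf* iCre/+;*Gp130* flox/flox, and the controls were wildtype by their labels and, in the methods of the study, *Ltf* +/+;*Gp130* flox/flox or wildtype. All were sexually mature and on a C57BL/6 background by their labels, written as C57BL/6J in the methods of the study. Cre was made from the *Ltf* locus, which is active in uterine epithelium of mature females. The study adds that some immune cells, neutrophils and macrophages among them, also express *Ltf*. Only the *Gp130* ecKO females carried the iCre allele, so that allele and the deletion cannot be told apart. The labels list 6 separate samples without saying that each came from its own female, so the p-values measure the spread between these samples, which may be technical, and each sample is called a uterus here. Expected counts summed to between 13960748 (control 3) and 25906443 (control 2). *Il6st*, the gene for GP130, had a CPM (the count scaled to a common library size with TMM) of 631, 678 and 452 in controls 1 to 3 and of 388, 349.8 and 362 in *Gp130* ecKO 1 to 3, in RNA that also held stroma and muscle. On the first axis of a multidimensional scaling plot, with 43.3% of the variance, the *Gp130* ecKO uteri lay between −1.47 and −1.32, controls 1 and 3 at 2.09 and 2.08, and control 2 at 0.029, between the groups.

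*Dsc2* and *Dsg2* showed the largest differences among the 9 tested genes, and both were higher in every *Gp130* ecKO uterus. *Dsc2* encodes desmocollin 2, the desmocollin of simple epithelia, and lies on the minus strand at chr18:20163675-20192717 of GRCm39 (ENSMUSG00000024331). Its CPM was 24.8, 22.3 and 12.5 in controls 1 to 3 and 125, 138 and 344.0 in *Gp130* ecKO 1 to 3. The groups did not overlap, and *Gp130* ecKO 3 stood far above the other mutant uteri. The mean was 19.8 ± 6.50 in controls and 202 ± 123 in mutants (SD, n = 3 each), which is 10.2-fold. On the log2 scale the fold change was 3.35 with a standard error of 0.47 and an adjusted p of 0.0548 in edgeR's quasi-likelihood test, just above the 0.05 limit. It lay between 2.75, without *Gp130* ecKO 3, and 3.60, without *Gp130* ecKO 1. The adjusted p of that test was 0.0299 without control 2 (log2 fold change 3.47) but 0.139, 0.137, 0.108, 0.0904 and 0.128 without control 1, control 3 and *Gp130* ecKO 1, 2 and 3.

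*Dsg2* encodes desmoglein 2, the desmoglein found in nearly all desmosome-bearing tissues, and lies on the plus strand at chr18:20691074-20737581 (ENSMUSG00000044393). Its CPM was 70.4, 58.0 and 58.5 in the controls and 177, 173 and 147 in the *Gp130* ecKO uteri. The uteri of each group were close together, and the lowest mutant uterus was above the highest control. *Dsg2* rose from 62.3 ± 7.01 to 166 ± 16.2 (SD, n = 3 each), a log2 fold change of 1.41 with a standard error of 0.16 and an adjusted p of 0.0429 in edgeR's quasi-likelihood test. It was the only 1 of the 9 genes called at an adjusted p under 0.05 and more than 2-fold, where 0.157% of the 16605 tested genes were called in either direction (26 genes). With 1 uterus left out, the log2 fold change stayed between 1.37 and 1.54. The adjusted p of the quasi-likelihood test was 0.0204 without control 2 but 0.120, 0.137, 0.116, 0.106 and 0.128 without control 1, control 3 and *Gp130* ecKO 1, 2 and 3. The call was also lost in the legacy form of that test, with an adjusted p of 0.0593.

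*Dsg3* encodes desmoglein 3, known mainly from stratified epithelia, and lies between *Dsg4* and *Dsg2* at chr18:20643331-20680516 on the plus strand (ENSMUSG00000056632). It varied more within groups than between them. Its CPM was 39.4, 3.70 and 32.6 in the controls and 36.9, 8.19 and 3.57 in the *Gp130* ecKO uteri. Control 1, control 3 and *Gp130* ecKO 1 were high, and the other 3 uteri were low. The highest uterus of a group was 10.6 times the lowest in controls and 10.4 times in mutants. Its log2 fold change was −0.64 with a standard error of 0.99 (edgeR quasi-likelihood test, adjusted p = 0.711), and it ranged from −2.09, without *Gp130* ecKO 1, to −0.12, without control 1, and was −1.13 without control 2.

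**Figure D1:**
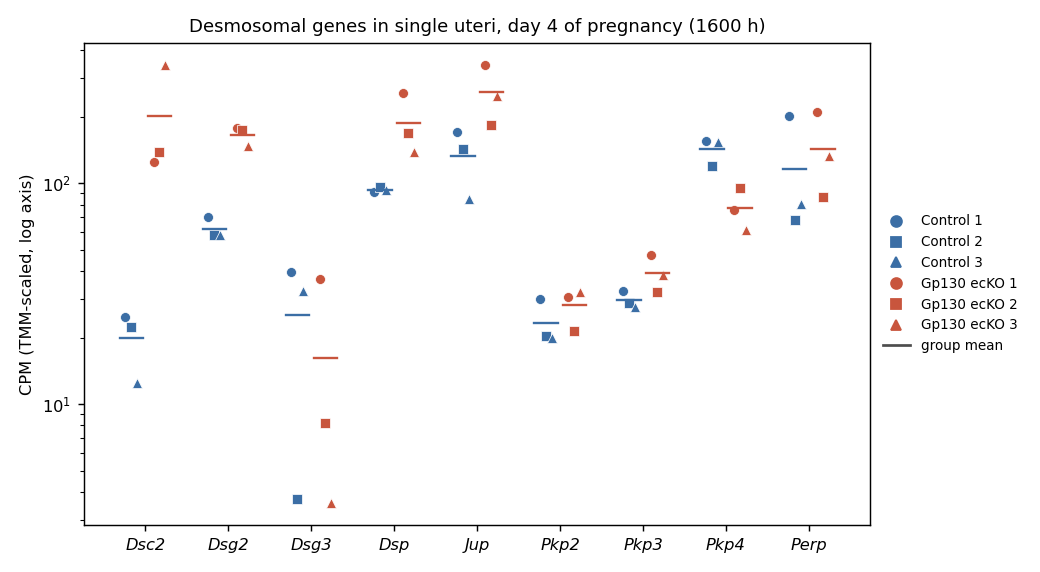
CPM of each desmosomal gene that passed the filter, on a log axis, in 3 control and 3 *Gp130* ecKO uteri, with 1 marker per uterus and a line at the group mean. The mutant uteri sit above the controls without overlap for *Dsc2*, *Dsg2*, *Dsp* and *Jup* and below them for *Pkp4*, and *Dsg3* spreads widely in both groups.

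The remaining desmosomal cadherins, known from skin and hair, were at or near 0 in the controls. *Dsc1*, *Dsc3*, *Dsg1a*, *Dsg1b*, *Dsg1c* and *Dsg4* did not pass the filter, nor did *Cdsn*, the gene of corneodesmosin, so none of these 7 genes was tested. *Dsg4*, a desmoglein of the hair follicle, had 1, 2 and 0 counts in the controls and 174, 131 and 5 in the *Gp130* ecKO uteri. It was therefore detected clearly in *Gp130* ecKO 1 and 2 and close to the limit in *Gp130* ecKO 3. *Dsc3* had no counts in the controls and 3, 10 and 12 in the *Gp130* ecKO uteri, and *Dsc1* had none and 2, 6 and 7. A count of 3, the limit that a count of 0 allows, corresponds to 0.115 to 0.2 CPM in these libraries, for counting error only. *Dsg1a*, *Dsg1b* and *Dsg1c* are near-identical copies between which RSEM divides reads, and their counts are uncertain.

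The make-up of the cadherin transcripts held a larger share of *Dsc2* in every *Gp130* ecKO uterus than in any control. Levels of different genes were compared as TPM, which is scaled per gene length. The 9 desmosomal cadherin genes summed to 30.2, 20.7 and 25.7 TPM in the controls and to 95.1, 99.6 and 129.9 TPM in the *Gp130* ecKO uteri. *Dsc2* made up 22.7%, 31.3% and 15.1% of this sum in the controls and 40.9%, 46.8% and 73.3% in the *Gp130* ecKO uteri. *Dsg2* made up 51.1%, 64.8% and 55.5% in the controls and 46.8%, 48.7% and 25.6% in the *Gp130* ecKO uteri. The smallest *Dsc2* share of a mutant uterus was above the largest of a control, and for *Dsg2* the order was the other way, although its level was higher in the mutants. *Dsg3* took 26.2% and 29.5% in controls 1 and 3 but 3.77% in control 2, and 8.79%, 2.02% and 0.554% in the *Gp130* ecKO uteri.

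**Figure D2:**
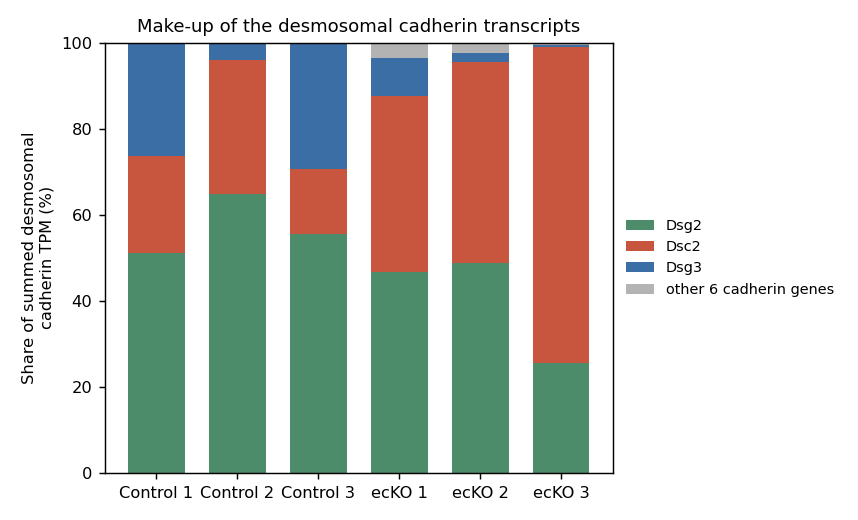
Share of the summed TPM of the 9 desmosomal cadherin genes in each uterus, in percent, as stacked bars. *Dsg2* is the main cadherin transcript in every control, and *Dsc2* reaches 73.3% in *Gp130* ecKO 3.

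Desmocollins and desmogleins pair in the desmosome, so the *Dsc2* to *Dsg2* ratio was taken in each uterus. The TPM ratio was 0.444, 0.482 and 0.272 in controls 1 to 3 and 0.874, 0.962 and 2.87 in *Gp130* ecKO 1 to 3. Only in *Gp130* ecKO 3 was *Dsc2* the more abundant of the pair. On the log2 scale of CPM with a pseudocount of 0.5, the ratio was −1.68 ± 0.44 in controls and 0.13 ± 0.95 in *Gp130* ecKO (SD, n = 3 each), a difference of 1.81 or 3.51-fold. The difference was 1.27 without *Gp130* ecKO 3. Both genes had been chosen with their differences known, so no test of the ratio is given.

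The plaque genes *Dsp* and *Jup* were higher in every *Gp130* ecKO uterus, and neither passed the adjusted test. *Dsp* encodes desmoplakin, the plakin that ties the plaque to keratin filaments, and lies at chr13:38335230-38382553 on the plus strand (ENSMUSG00000054889). Its CPM was 91.5, 96.3 and 93.0 in the controls and 255, 168 and 139 in the *Gp130* ecKO uteri. The controls differed by little, and *Gp130* ecKO 1 was the highest. The means were 93.6 ± 2.47 and 187 ± 60.2 (SD, n = 3 each), with a log2 fold change of 1.00, a standard error of 0.24 and an adjusted p of 0.0868 in edgeR's quasi-likelihood test. With 1 uterus left out, it lay between 0.72 and 1.20.

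*Jup* encodes plakoglobin, an armadillo protein that binds desmosomal and classical cadherins, and lies at chr11:100259784-100291103 on the minus strand (ENSMUSG00000001552). Its CPM was 170.2, 142.5 and 84.8 in the controls and 342, 183 and 249 in the *Gp130* ecKO uteri. Control 1 and *Gp130* ecKO 2 came close without overlapping. The log2 fold change was 0.96 with a standard error of 0.32 (edgeR quasi-likelihood test, adjusted p = 0.133), and 0.71 to 1.20 with 1 uterus left out. The *Dsp* to *Jup* ratio in TPM was 0.201, 0.248 and 0.375 in the controls and 0.270, 0.310 and 0.202 in the *Gp130* ecKO uteri, so the balance of these plaque transcripts overlapped between the groups.

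Among the plakophilins, armadillo proteins that cluster the cadherins, *Pkp4* went the other way. *Pkp4* is the family member also known from adherens junctions and outside epithelia, and lies at chr2:58991088-59185552 on the plus strand (ENSMUSG00000026991). Its CPM was 155.9, 119.8 and 153 in the controls and 75.8, 94.9 and 61.2 in the *Gp130* ecKO uteri. Every mutant uterus was below every control. The means were 142.9 ± 20.1 and 77.3 ± 16.9 (SD, n = 3 each), so that the control mean was 1.85 times the mutant mean. The log2 fold change was −0.89 with a standard error of 0.21 and an adjusted p of 0.0868 in edgeR's quasi-likelihood test, and it lay between −1.06 and −0.71 with 1 uterus left out.

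*Pkp3*, a plakophilin of most epithelia (ENSMUSG00000054065, chr7:140658040-140670423, plus strand), had a CPM of 32.6, 28.8 and 27.5 in the controls and of 47.2, 32.2 and 38.3 in the *Gp130* ecKO uteri. *Gp130* ecKO 2 lay just within the control range. Its log2 fold change was 0.40 with a standard error of 0.20 (edgeR quasi-likelihood test, adjusted p = 0.247), and it lay between 0.25, without *Gp130* ecKO 1, and 0.53, without *Gp130* ecKO 2. *Pkp2*, the plakophilin of simple epithelia and heart (ENSMUSG00000041957, chr16:16031144-16090586, plus strand), had a CPM of 30.0, 20.2 and 19.9 in controls and of 30.5, 21.3 and 32.0 in mutants, with a log2 fold change of 0.26 and a standard error of 0.25. With 1 uterus left out it lay between 0.15, without control 3, and 0.51, without control 1. *Pkp1*, the plakophilin of stratified epithelia (ENSMUSG00000026413, chr1:135799133-135846945, minus strand), had 1 count in control 1, 1 in *Gp130* ecKO 1 and 0 in the other uteri, so no fold is given. Of the summed plakophilin TPM, *Pkp4* took 67.8%, 65.5% and 71.7% in the controls and 44.6%, 60.2% and 41.4% in the *Gp130* ecKO uteri, and *Pkp3* took 18.6%, 22.01% and 17.7% against 34.7%, 25.1% and 34.6%.

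*Perp*, a tetraspan protein needed for desmosome assembly in skin (ENSMUSG00000019851, chr10:18720715-18732821, plus strand), overlapped between the groups. Its CPM was 200.7, 68.1 and 80.4 in the controls and 211, 86.7 and 132 in the *Gp130* ecKO uteri. Uterus 1 of each group was the highest. The log2 fold change was 0.30 with a standard error of 0.47 (edgeR quasi-likelihood test, adjusted p = 0.716), and it was −0.084 without *Gp130* ecKO 1, 0.051 without control 2, 0.090 without control 3 and 0.97 without control 1.

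Across the 9 tested genes, 4 were higher (*Dsc2*, *Dsg2*, *Dsp*, *Jup*) and 1 lower (*Pkp4*) with no overlap between the groups. Over all tested genes, 15.7% were higher and 15.6% lower in the same way. The same 5 genes had an unadjusted p under 0.05 in the quasi-likelihood test, which 12.1% of all tested genes had as higher and 12.9% as lower. Since the genes were chosen with this contrast known, nothing is read from these counts. The median log2 fold change was 0.40 over the 9 genes and −0.05 over all tested genes. With edgeR's exact test *Dsc2*, *Dsg2* and *Dsp* were called, where 7.54% of all genes were called, and with DESeq2 the same 3 genes were called, where 9.31% were called.

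**Figure D3:**
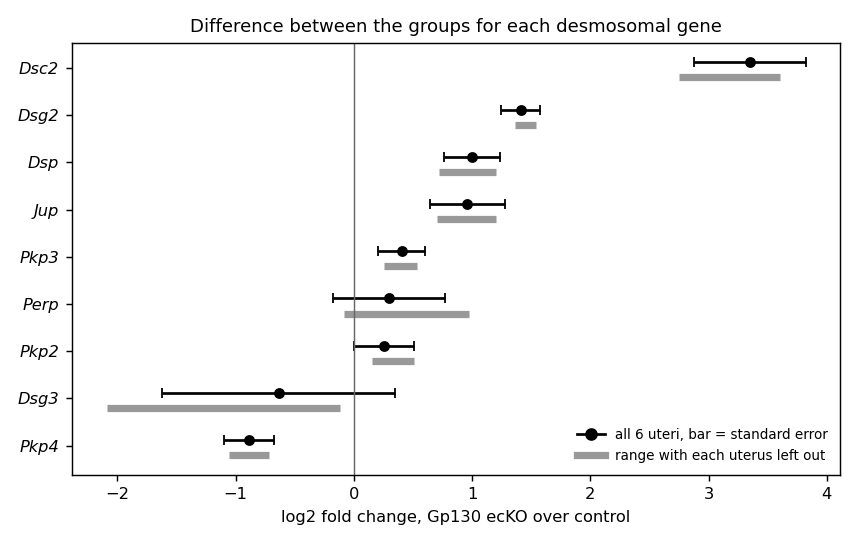
Log2 fold change of each tested desmosomal gene, *Gp130* ecKO over control, with its standard error and, as a wider band, the range with each uterus left out in turn. *Dsc2* at 3.35 and *Dsg2* at 1.41 lie farthest to the right, *Pkp4* at −0.89 lies to the left, and the bands of *Dsg3* and *Perp* are the widest relative to their values.

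Per length, the most abundant transcripts in controls were *Perp* (79.4 ± 45.8 TPM), *Pkp4* (59.7 ± 9.74) and *Jup* (55.5 ± 14.5), whose ranges overlapped from each to the next. They were followed by *Pkp3* (16.8 ± 0.98), *Dsp* (14.4 ± 0.71), *Dsg2* (14.35 ± 1.01), *Pkp2* (10.7 ± 2.07), *Dsc2* (5.72 ± 1.62) and *Dsg3* (5.42 ± 4.02), and in that order the neighbours *Dsp* and *Dsg2*, and *Dsc2* and *Dsg3*, overlapped. In *Gp130* ecKO, *Jup* (115 ± 33.6 TPM) and *Perp* (104 ± 45.7) came first, then *Dsc2* (60.3 ± 30.6) and *Dsg2* (42.1 ± 7.91). By mean TPM, *Dsc2* was thus in place 8 of the 10 genes in controls and in place 3 in *Gp130* ecKO. Its mutant range overlapped those of *Jup*, *Perp*, *Dsg2*, *Pkp4* and *Dsp*. In *Gp130* ecKO 1 and 2, *Dsc2* was below *Dsg2*, at 38.9 and 46.6 against 44.5 and 48.5 TPM. The summed cadherin TPM divided by that of *Dsp*, *Jup*, *Pkp1*, *Pkp2* and *Pkp3* was 0.269, 0.207 and 0.321 in the controls and 0.404, 0.664 and 0.837 in the *Gp130* ecKO uteri, with no overlap.

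The summed level of 10 general epithelium markers, keratins among them, was also higher in every *Gp130* ecKO uterus, so the desmosomal genes were set against them. Without the keratins, the sums of the 6 other markers overlapped, with control 1 at 2150 CPM and *Gp130* ecKO 3 at 2024 CPM. In bulk RNA, fewer cells of a type and less RNA per cell cannot be told apart. The 10 epithelium markers summed to 2266 to 3376 CPM in controls and 4755 to 6531 CPM in *Gp130* ecKO, and 5 of the 10 were higher at an unadjusted p under 0.05 and 0 lower in edgeR's quasi-likelihood test, none at an adjusted p under 0.05, where 12.1% of all tested genes were higher and 12.9% lower at that unadjusted p. *Epcam* was at 649.5, 379 and 348 CPM in controls against 429, 363 and 414 CPM in *Gp130* ecKO uteri, and the groups overlapped. The 10 stroma markers summed to 3176 to 3649 CPM in controls and 1598 to 2394 CPM in *Gp130* ecKO, the 8 endothelium markers to 497.5 to 1207 and 267.7 to 432.1 CPM, and the 10 muscle markers to 852 to 3334 and 648.6 to 3609 CPM. Of the stroma markers 6 of 10 and of the endothelium markers 6 of 8 were lower at an unadjusted p under 0.05, as were 2 of 6 mesothelium markers and 12.9% of all tested genes, and 0 of the 10 muscle markers had such a p in either direction. The part of these shifts in the desmosomal values was not tested. The squamous epithelium markers summed to 5.30 to 9.14 CPM in controls and 11.6 to 17.2 CPM in *Gp130* ecKO. Of the 11 listed genes, 10 were found in the deposited tables and 3 passed the filter on low counts. Of these 3, *Krt13* and *Trp63* were higher and 0 lower at an unadjusted p under 0.05 in the quasi-likelihood test. Of all tested genes, 12.1% were higher and 12.9% lower at that p. None of the 3 passed the adjusted test. *Krt6a* had 3, 0 and 49 counts in the controls and 0 in every *Gp130* ecKO uterus, and *Ivl* had 3, 1 and 5 counts against 1, 0 and 0, with *Krt5* at 0 counts but for 1 in control 2 and *Sprr1b* at 0 in every uterus.

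Relative to the summed epithelium markers of the same uterus, the log2 difference was 2.35 for *Dsc2* and 0.54 for *Dsg2*. It was 0.085 for *Dsp* and 0.10 for *Jup*. It was −1.56 for *Dsg3*, −1.76 for *Pkp4*, −0.61 for *Pkp2*, −0.48 for *Pkp3* and −0.49 for *Perp*. These values depend on the 4 keratins among the 10 markers. The marker sum itself had a log2 difference of 0.87 with the keratins and of 0.42 over the 6 other markers, a reference chosen after seeing the data. Against those 6 markers the log2 difference was 2.80 for *Dsc2*, 0.99 for *Dsg2*, 0.53 for *Dsp* and 0.55 for *Jup*. It was −1.11 for *Dsg3* and −1.31 for *Pkp4*. *Pkp4* is also known from outside epithelia, and the stroma markers had a median log2 fold change of −0.79 per library. The part of that in the *Pkp4* values was not tested. *Pkp2*, *Pkp3* and *Perp*, which were below 0 against the full sum and above 0 per library, were at −0.16, −0.034 and −0.042. *Dsc2* and *Dsg2* were thus above the summed markers on either reference. The values of *Dsp* and *Jup* were near 0 only with the keratins included. Of the single markers, *Krt19* had a larger log2 fold change per library (2.19) than *Dsg2* (1.41). *Krt8* (1.32) and *Krt7* (1.23) came close to *Dsg2*, and the other markers were lower. Against *Cdh1*, the gene of E-cadherin, the *Dsc2* TPM ratio was 0.0346, 0.0296 and 0.0198 in the controls and 0.1, 0.119 and 0.378 in the *Gp130* ecKO uteri. The *Dsg2* ratio was 0.0780, 0.0613 and 0.0728 against 0.114, 0.124 and 0.132, again without overlap, and the *Dsp* ratio was 0.0686, 0.0677 and 0.0756 against 0.107, 0.0721 and 0.0808, with overlap.

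**Figure D4:**
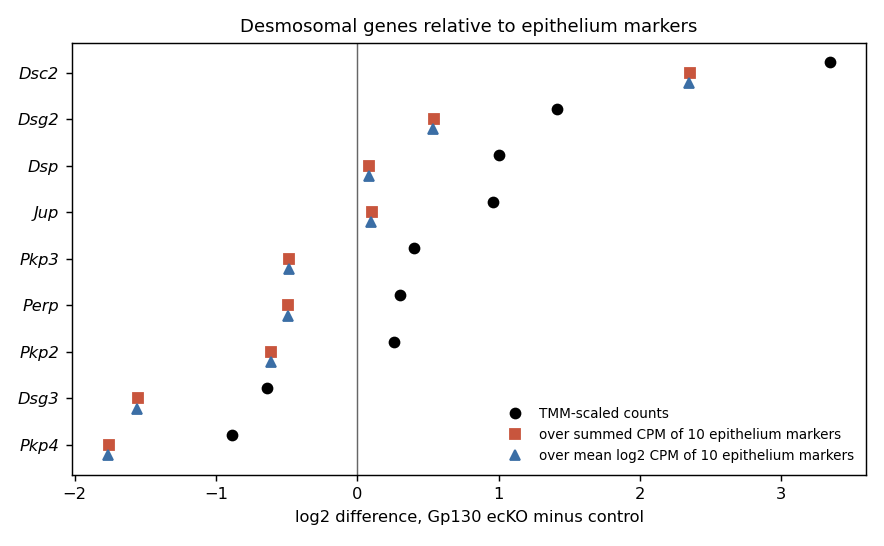
Log2 difference of each tested desmosomal gene, *Gp130* ecKO minus control, per library and relative to the epithelium markers of the same uterus. *Dsc2* and *Dsg2* stay to the right of 0 on each scale, *Dsp* and *Jup* move close to 0, and *Pkp2*, *Pkp3* and *Perp* cross it against this reference, which holds 4 keratins.

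The partners of the plaque were examined next, in lists that share genes with the epithelium markers (*Krt7*, *Krt8*, *Krt18* and *Krt19*, and *Cdh1*). Of 9 keratin and plakin genes, 5 were higher, where 12.1% of all tested genes were, and 0 lower at an unadjusted p under 0.05 in edgeR's quasi-likelihood test, with a median log2 fold change of 0.77, and 0 passed the adjusted test. *Krt8*, a keratin of simple epithelia, was at 435, 649 and 347 CPM in controls against 1447, 1016 and 1101 CPM in *Gp130* ecKO uteri, with a log2 fold change of 1.32 and an adjusted p of 0.0821 in that quasi-likelihood test. *Ppl*, the gene of periplakin, was at 57.8, 87.5 and 64.3 CPM against 217.5, 218.5 and 105 CPM (log2 fold change 1.37). *Krt7* and *Krt19* had log2 fold changes of 1.23 and 2.19, and all 4 genes had no overlap between the groups. *Krt19* was at 382 CPM in control 2 and at 86.0 and 109 CPM in controls 1 and 3.

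Of 12 adherens junction genes, 2 were higher and 2 lower at an unadjusted p under 0.05, near the 12.1% and 12.9% of all tested genes, and 0 passed the adjusted quasi-likelihood test of edgeR. *Cdh1* was at 699, 733 and 615 CPM in controls against 1219, 1131 and 887 CPM in *Gp130* ecKO uteri (log2 fold change 0.66), and *Ctnnd1*, the gene of p120 catenin, had a log2 fold change of 0.73. *Nectin1* and *Nectin3*, nectins that start cell contacts, had log2 fold changes of −0.83 and −0.95. The adherens junction list had a median log2 fold change of 0.37.

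Among 13 tested regulators of epithelial junction genes, 3 were higher and 5 lower at an unadjusted p under 0.05, where 12.1% and 12.9% of all tested genes were, and 0 passed the adjusted quasi-likelihood test of edgeR. *Snai2* and *Twist1*, repressors of epithelial cadherins, were lower in every *Gp130* ecKO uterus. *Snai2* was at 14.6, 15.5 and 17 CPM in controls against 4.97, 5.27 and 6.92 CPM in *Gp130* ecKO uteri, with a log2 fold change of −1.45 (quasi-likelihood adjusted p = 0.0621). *Snai1*, named here after its values were seen, was at 33.8, 24.6 and 63.5 CPM in controls against 12.3, 22.1 and 6.92 CPM in mutants. Its log2 fold change was −1.56 (quasi-likelihood adjusted p = 0.124). The study followed SNAI1 as protein by immunostaining, and reported no difference in *Snai1* RNA from its own RNA-seq analysis. *Twist1* had a log2 fold change of −1.78, *Zeb2* of −1.09 and *Grhl2*, an activator of epithelial junction genes, of 0.94. These repressors are also expressed in stroma, whose markers were lower in the same uteri, and the part of that in their values was not tested. Of 12 genes of junction turnover, 1 was higher (*Zdhhc5*) and 1 lower (*Tgm1*) at that p, no more than the share of all tested genes.

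The repressors of the Snail family bind the E-box CAGGTG, so the 250 bases before the canonical start of each gene (GENCODE M39 on GRCm39) were searched for it on both strands. It was found in 17% of the promoters of 14182 tested protein-coding genes. Among the 9 desmosomal genes whose window is reported, it was found in those of *Dsg2* (161 bases before the start), *Pkp1* (185 bases), *Pkp2* (176 bases) and *Perp* (90 bases), and not in those of *Dsc2*, *Dsg3*, *Dsp*, *Jup* and *Pkp4*. The motif TTCNNNGAA, bound by STAT proteins, was in 6.73% of all promoters and the estrogen receptor palindrome, GGTCA and TGACC 3 bases apart, in 0.0141%, and neither was in any of the 9. A match is a description of the letters, and no match says only that the letters are not in this window.

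The windows are shown for the plaque genes whose groups did not overlap, which hold no match to any of these motifs and are therefore all in lower case. They span chr13:38334980-38335229 on the plus strand for *Dsp*, chr11:100288662-100288911 on the minus strand for *Jup* and chr2:58990838-58991087 on the plus strand for *Pkp4*, each written 5′ to 3′ on the strand of the gene.
Dsp: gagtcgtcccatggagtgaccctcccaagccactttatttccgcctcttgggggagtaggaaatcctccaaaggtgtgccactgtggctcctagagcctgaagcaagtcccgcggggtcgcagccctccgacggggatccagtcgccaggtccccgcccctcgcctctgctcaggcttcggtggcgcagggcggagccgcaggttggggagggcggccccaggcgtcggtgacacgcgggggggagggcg
Jup: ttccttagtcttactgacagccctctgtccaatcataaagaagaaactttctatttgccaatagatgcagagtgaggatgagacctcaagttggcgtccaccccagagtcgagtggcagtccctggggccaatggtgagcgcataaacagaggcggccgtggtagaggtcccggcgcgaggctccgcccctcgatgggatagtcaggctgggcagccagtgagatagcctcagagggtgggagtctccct
Pkp4: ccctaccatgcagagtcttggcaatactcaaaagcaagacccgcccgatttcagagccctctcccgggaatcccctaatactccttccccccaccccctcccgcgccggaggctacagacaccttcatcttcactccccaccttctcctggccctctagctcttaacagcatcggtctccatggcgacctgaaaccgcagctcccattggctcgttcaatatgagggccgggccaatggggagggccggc

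The cadherin genes lie together, so their neighbours were also examined. The 9 cadherin genes span chr18:20093987-20737581, and within 500 kb of them the tables held 15 other genes, of which 6 were tested. Of all tested genes, 0.157% were called and 12.9% were lower at an unadjusted p under 0.05 in the quasi-likelihood test. None of the 6 was called, and 1 was lower at that p, which is near that share. This was *B4galt6*, a galactosyltransferase gene, at 219, 164 and 202 CPM in controls against 60.7, 90.4 and 55.0 CPM in *Gp130* ecKO uteri, with a log2 fold change of −1.51 (edgeR quasi-likelihood adjusted p = 0.0548). *Dsc2* and *Dsg2* were thus higher and *B4galt6*, which lies beyond *Dsg2* and outside the span of the cadherin genes, lower, while *Dsg3*, next to *Dsg2*, overlapped between the groups.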

How the data were processed

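Strand-specific poly(A) libraries of uterus RNA were read as single reads. The authors trimmed reads with fastp 0.23.2, took out ribosomal RNA (SortMeRNA), aligned what was left to GRCm39 (STAR 2.7.10a) and counted genes with RSEM 1.3.3, which divides reads shared between genes. The annotation version and the use of strand in counting are not given in the sources used here. The deposited expected counts are estimates per gene and were not normalized. The deposited TPM, which the authors' RSEM run scales to gene length and library depth, were used to compare levels between genes, and the deposited FPKM were not used for results.

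Expected counts were rounded, filtered with filterByExpr (16605 of 56748 genes), scaled by TMM and compared with the quasi-likelihood F test of edgeR 4.0.16 in R 4.3.3, without the legacy setting. Genes were called at a Benjamini-Hochberg adjusted p under 0.05 over all tested genes and more than 2-fold. Standard errors were taken as |log2 fold change|/√F. The members and gene lists were chosen with earlier results of these data known. Named genes were all members and other desmosomal cadherins and, of every other list, those called or up to 4 with the lowest adjusted p. *Snai1*, *B4galt6*, *Epcam*, *Krt5*, *Krt6a*, *Ivl*, *Sprr1b* and *Eppk1* were named after their values were seen. Alternatives were the exact test and the likelihood ratio test of edgeR, the legacy form, DESeq2 1.42.0, other scalings and filters, the replicate number as a block, each uterus left out, and epithelium markers as reference. The promoter window of 1 desmosomal gene is not reported here. Coordinates and promoters came from GENCODE M39, which holds 56017 of the gene identifiers. No 2 libraries of a group had nearly identical counts (chi-square per gene of 89.6 to 130.8). The scripts were tested on simulated data.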

Additional observations from a re-analysis of the deposited data

How the results depend on the processing

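The number of called genes over all tested genes (26) and of called desmosomal genes (1) depended on the test. It was 1252 and 3 with edgeR's exact test, 1317 and 3 with its likelihood ratio test, 1546 and 3 with DESeq2, 105 and 2 with no filter on low counts, 7 and 0 with the legacy quasi-likelihood form, and 6 and 0 with the replicate block. At an unadjusted p under 0.05, a threshold chosen after seeing the data, these last 2 settings had 5 desmosomal genes among 4033 and 3677 of 16605 genes, and the quasi-likelihood test itself had 5 among 4151. With each uterus left out in turn, the counts ranged from 1 to 897 and from 0 to 2, the highest without control 2, and 4 to 6 desmosomal genes were among 2654 to 4684 genes with an unadjusted p under 0.05. The replicate numbers were not taken as pairs, since the deviations of same-numbered uteri correlated at 0.104, 0.0691 and −0.196. The *Dsc2* to *Dsg2* difference kept its sign in the alternatives that could change it (1.27 to 2.13 with a uterus left out). The difference within replicate numbers equals the difference of group means by arithmetic, so its 1.81 is no separate check. The adjusted p of *Dsg2* ranged from 1.71e-10 to 0.137 over 16 fitted alternatives and was 0.0652 in the replicate block, and that of *Dsc2* ranged from 5.02e-10 to 0.139. Relative to the summed epithelium markers, to their mean log2 and to their sum without keratins, the last 2 chosen after seeing the data, the sign turned for *Pkp2* (−0.61, −0.61 and −0.16), *Pkp3* (−0.48, −0.49 and −0.034) and *Perp* (−0.49, −0.49 and −0.042). *Perp* ranged from −0.084 to 0.97 with a uterus left out. The cause was not tested. Of 171 alternative values of single genes, 133 kept their direction and side of the threshold or, where there was no test, moved by less than the SD between uteri. Upper quartile scaling moved the median of all genes to −0.11 and turned the sign of none of the 9 tested genes. Control 3, with the lowest total count, gave the least precise values for genes of low count.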

Other observations

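*Eppk1*, the gene of epiplakin, a plakin that binds keratin, was high and low in the same uteri as *Dsg3*, a likeness noticed after the values were seen. Its CPM was 18.0, 2.66 and 14.5 in controls 1 to 3 and 15.5, 3.27 and 2.49 in *Gp130* ecKO 1 to 3, so control 1, control 3 and *Gp130* ecKO 1 were high, as for *Dsg3* (39.4, 3.70, 32.6, 36.9, 8.19 and 3.57 in the same order). The muscle markers had another order, with 3334, 2598 and 852 CPM in controls against 648.6, 1204 and 3609 CPM in *Gp130* ecKO uteri. *Krt13*, a keratin of stratified epithelia, was at 0.0809, 0.540 and 0.2 CPM in controls against 3.98, 1.58 and 4.60 CPM in *Gp130* ecKO uteri. *Trp63* was at 0.971, 0.501 and 1.0 against 2.71, 1.5 and 2.49 CPM, while *Krt5* was at 0 counts in 5 of 6 uteri. Not every squamous marker was higher. *Krt6a* had 3, 0 and 49 counts in controls and 0 in every *Gp130* ecKO uterus, and *Ivl* had 3, 1 and 5 against 1, 0 and 0. In *Gp130* ecKO 1 and 2, *Dsg4* was at 7.87 and 5.04 CPM, and in *Gp130* ecKO 3 it was at 0.207 CPM, whereas *Dsc2* was highest in *Gp130* ecKO 3.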
